A study of Mus musculus with 6 samples.

Results

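A set of 10 genes of iron oxidation, import, storage, export and heme breakdown was followed in mouse ovarian surface epithelial cells, the cell layer that covers the ovary. The cells were controls or carried a deletion of Lats1 and Lats2, the kinases at the core of the Hippo pathway. The genes are Cp, Heph, Tfrc, Slc40a1, Slc11a2, Fth1, Ftl1, Hmox1, Steap3 and Ncoa4, 10 of the 48440 genes in the deposited count table, matched by Ensembl ID without its version. They were put together by function, with results of this same comparison already known, Cp having been among the largest falls of the whole table. Their values are therefore given as a description, without p-values. The control group, labelled WT, was transduced with Ad-GFP, an adenovirus that carries a fluorescent marker, and the group labelled Lats1/2 knockout with Ad-Cre-GFP, which adds the Cre recombinase. Each group had 3 libraries of poly(A)-selected RNA taken 1 week after transduction. Nothing in the labels says that the replicates came from different cultures, and a p-value then reflects the spread of these 6 libraries alone, which may be technical. In this design the gene deletion, the presence of Cre and culture differences cannot be told apart.

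Iron enters most cells bound to transferrin, which the receptor encoded by Tfrc carries into endosomes. There a STEAP reductase turns ferric into ferrous iron and the transporter encoded by Slc11a2 (DMT1) moves it to the cytosol. Iron that is not used is stored in ferritin, a shell of heavy (Fth1) and light (Ftl1) chains, and ferritin is sent to the lysosome by the cargo receptor encoded by Ncoa4. Ferroportin, encoded by Slc40a1, is the exporter, and the copper-containing ferroxidases ceruloplasmin (Cp) and hephaestin (Heph) oxidise the iron that leaves. Heme oxygenase 1 (Hmox1) frees iron from heme. Iron regulatory proteins tie these steps together by binding short hairpins, iron responsive elements, in the untranslated regions (UTRs) of the mRNAs. A hairpin in the 5′ UTR lets them block translation, and hairpins in the 3′ UTR of Tfrc let them protect the mRNA from decay.

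These hairpins are shown because they are what several of the genes share at the level of sequence. UTRs of GENCODE M21 transcripts (GRCm38) were searched for a C, a stem of 5 base pairs (G with T allowed) and the 6-base loop CAGTGN, with N not G. The pattern was found in 4 of the 10 genes, and in 123 of 21877 protein-coding genes (0.562%). In the sequences below, written 5′ to 3′ as DNA, the capitals mark the unpaired C and the loop, with 6 bases on each side of the 17-base core.
Fth1, 5′ UTR, chr19:9982732-9982760, plus strand: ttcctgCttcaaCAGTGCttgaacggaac
Ftl1, 5′ UTR, chr7:45459779-45459807, minus strand: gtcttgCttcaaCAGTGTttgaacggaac
Slc40a1, 5′ UTR, chr1:45925465-45925493, minus strand: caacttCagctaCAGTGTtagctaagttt
Tfrc, 3′ UTR, chr16:32631219-32631247, plus strand: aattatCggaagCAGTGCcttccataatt
Tfrc, 3′ UTR, chr16:32631598-32631626, plus strand: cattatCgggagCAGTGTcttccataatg
Tfrc, 3′ UTR, chr16:32631663-32631691, plus strand: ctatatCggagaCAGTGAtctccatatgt
Tfrc, 3′ UTR, chr16:32631710-32631738, plus strand: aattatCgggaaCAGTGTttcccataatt
Tfrc held 4 such hairpins in its 3′ UTR, and both ferritin chains and ferroportin held 1 each in the 5′ UTR. The other 6 genes held no match to these letters. The search required 5 unbroken base pairs and this loop, so elements with another bulge in the stem or another loop would be missed. A lack of match therefore does not show that a gene has no iron responsive element.

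Library totals ran from 18690235 to 25363462 counts in the controls and from 27734527 to 30304033 in the knockouts. Levels are CPM, a gene's counts as a share of a library's total, scaled by TMM, a normalisation to the bulk of the genes. Lats1 fell from 159 ± 8.74 to 37.1 ± 1.36 CPM (SD, n = 3), or 23.3% of control, in the direction of the labels. Lats2 was at 130 ± 2.16 CPM in controls and 98.7 ± 1.97 CPM in knockouts (76.2% of control), a log2 fold change of -0.39 beside a median absolute change of 0.345 over all tested genes. A change of that size is no check of the Lats2 deletion, and reads over the deleted exons were not analysed here. All 12 listed markers of the ovarian surface epithelium were expressed, with a summed level of 4147 to 4188 CPM in controls and 3819 to 3853 CPM in knockouts, 5 of them higher and 7 lower. The sum hides larger changes of single markers, which ran from Krt19 at 33.1% of control to Krt7 at 263%. Ad-GFP replicate 3, the shallowest library, lay away from Ad-GFP replicates 1 and 2 on principal component 2 (-18.69 against 8.85 and 11.1). That component held 3.15% of the variance. Of 14811 genes tested with edgeR, 10344 (69.8%) were called at an adjusted p under 0.05.

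Among the 10 genes, 9 passed the filter on low counts and Heph did not. Of these 9, 7 were called, 4 lower and 3 higher, beside 69.8% of all tested genes (35.8% lower, 34.0% higher). The groups did not overlap for 6 of the 9, beside 73.0% of all tested genes. The median log2 fold change of the 9, knockout over control, was 0.05, and that of all tested genes was -0.01. The differences of Cp, Slc40a1 and Steap3 exceeded 1 on the log2 scale in either direction, and Fth1 followed at -0.45. Over all 14811 tested genes, 1799 had a larger absolute log2 fold change than Steap3 (1.08).

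**Figure D1:**
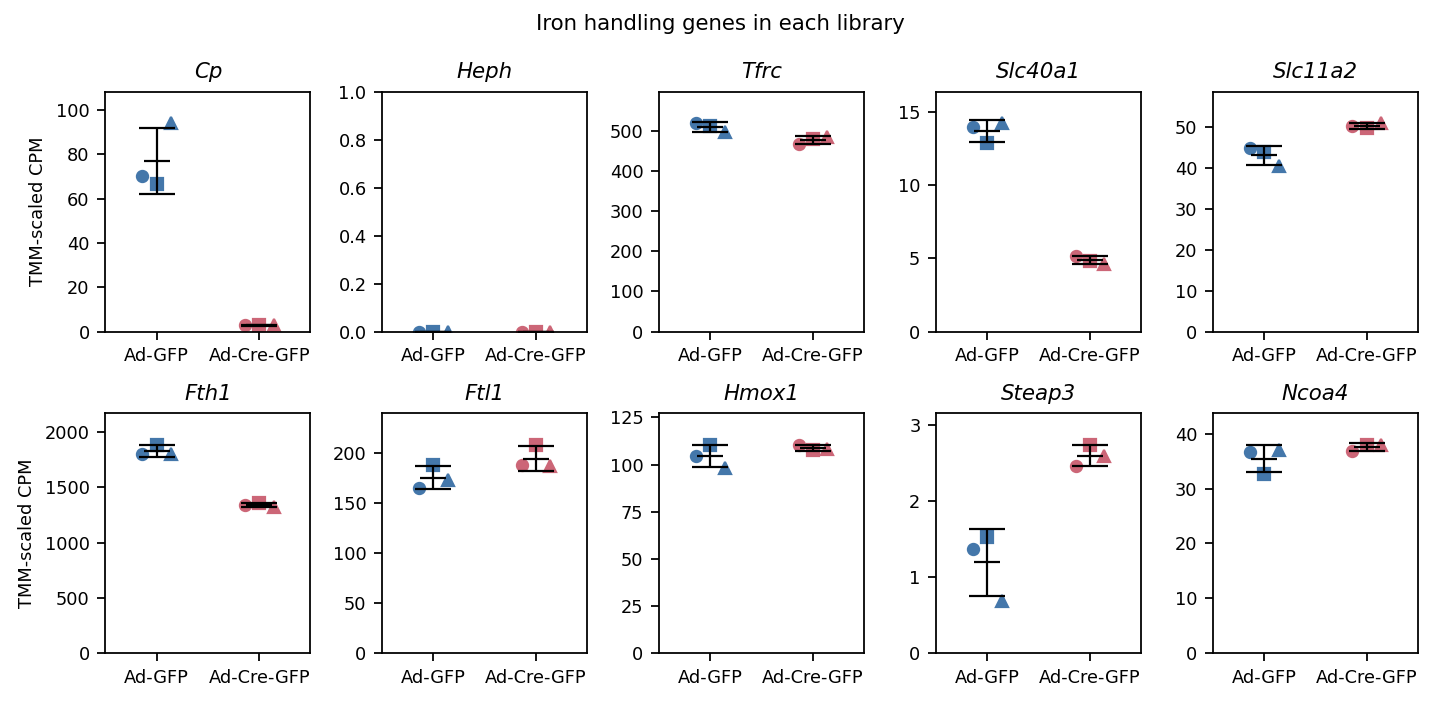
TMM-scaled CPM (y axis, each panel on its own linear scale from 0) of the 10 genes in the Ad-GFP (blue) and Ad-Cre-GFP (red) libraries; circles, squares and triangles are replicates 1, 2 and 3, and bars are the mean ± SD of 3 libraries. Cp drops from between 66.7 and 94.1 CPM to about 3 CPM, Slc40a1 and Fth1 are also lower without overlap, Steap3 is higher, and Heph is at 0 throughout.

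Cp, the copper-dependent oxidase that turns ferrous into ferric iron as it leaves the cell (chr3:19957054-20009145, plus strand), was at 70.4, 66.7 and 94.1 CPM in Ad-GFP replicates 1, 2 and 3. In the Ad-Cre-GFP libraries it was at 2.84, 2.81 and 3.10 CPM, from 83, 84 and 85 counts. The highest control library was Ad-GFP replicate 3, and every knockout library lay far below every control. The mean was 77.1 ± 14.8 CPM in controls and 2.92 ± 0.161 CPM in knockouts (SD, n = 3). The log2 fold change was -4.71 ± 0.24 (SE). That is 26.2-fold lower, or 3.81% of control, and only 31 of the 14811 tested genes had a lower log2 fold change. Without Ad-GFP replicate 3 the log2 fold change was -4.55. In bulk RNA, fewer cells that express a gene and less RNA per cell cannot be told apart.

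Exons of Cp overlap those of Hps3, a gene on the opposite strand, and the strand setting of the counting is not given in the sources used here. Hps3 had 401, 433 and 340 counts in the controls and 412, 422 and 399 in the knockouts, fewer than Cp in every control library and more than Cp in every knockout library. Its level changed by -0.31 ± 0.06 on the log2 scale (edgeR adjusted p = 0.000136). How many reads the genes share was not tested.

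Heph, the membrane-bound relative of ceruloplasmin (chrX:96455359-96574485), had 0 counts in all 6 libraries. A count of 0 allows up to 3 counts per library, which was 0.0990 to 0.161 CPM. The third gene of this ferroxidase family, Hephl1, had 2 counts in all controls and 7 in all knockouts. Of these 3 multicopper ferroxidase genes, Cp had the most reads in both groups.

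Slc40a1 encodes ferroportin, the iron exporter whose exported iron ceruloplasmin oxidises (chr1:45908068-45926523, minus strand). It was at 14.0, 12.9 and 14.3 CPM in the controls and at 5.16, 4.82 and 4.64 CPM in the knockouts. The groups were well apart, and replicates within each lay close together. The log2 fold change was -1.49 ± 0.09 (SE), which is 2.80-fold lower. Cp was lower by more than Slc40a1: the ratio of Cp to Slc40a1 counts was 5.03, 5.19 and 6.60 in the controls and 0.550, 0.583 and 0.669 in the knockouts. Cp and Slc40a1 were both called lower in the Ad-Cre-GFP group, as were 35.8% of all tested genes. Whether their changes are linked was not tested.

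On the import side Tfrc and Slc11a2 differed little, while Steap3, given below, differed by more. Tfrc, the transferrin receptor (chr16:32608920-32632794), was at 519, 511 and 496 CPM in the controls and at 467, 480 and 485 CPM in the knockouts. All knockout libraries lay below all controls, but the log2 fold change was only -0.09 ± 0.03. Tfrc was no longer called without Ad-GFP replicate 1 (-0.08), without Ad-Cre-GFP replicate 1 (-0.07) or with no filter on low counts (-0.08).

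Slc11a2, the ferrous iron transporter DMT1 (chr15:100387898-100425072), was at 44.8, 43.9 and 40.5 CPM in the controls and at 50.1, 49.6 and 50.9 CPM in the knockouts. It was higher in every knockout library, by 0.22 ± 0.04 on the log2 scale. Steap3, the endosomal ferric reductase (chr1:120190757-120272705), was the weakest of the expressed genes, with 30, 39 and 13 counts in the controls and 72, 82 and 71 in the knockouts. In CPM these were 1.37, 1.53 and 0.689 against 2.46, 2.74 and 2.59. Every knockout library was above every control, with Ad-GFP replicate 3 the lowest of all. The log2 fold change of Steap3 was 1.08 ± 0.21, and 0.84 without that library.

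Storage was split between the ferritin chains. Fth1, the heavy chain with the ferroxidase site of ferritin (chr19:9980598-9985098), was the most abundant of the 10 genes, at 1798, 1886 and 1802 CPM in the controls. It was at 1343, 1357 and 1325 CPM in the knockouts, clear of the controls, with a log2 fold change of -0.45 ± 0.03, or 73.4% of control. Ftl1, the light chain that helps the iron core to form (chr7:45457944-45459884), was at 165, 188 and 173 CPM in the controls and at 188, 209 and 187 CPM in the knockouts. These ranges overlapped, and the log2 fold change of Ftl1 was 0.15 ± 0.05. Ftl1 was called with all 6 libraries but not without Ad-GFP replicate 1 (0.10), Ad-GFP replicate 3 (0.14) or Ad-Cre-GFP replicate 2 (0.10).

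Ncoa4, the receptor that takes ferritin to the lysosome (chr14:32159865-32179855), was at 36.6, 32.7 and 37.1 CPM in the controls and at 36.8, 38.0 and 38.0 CPM in the knockouts. The groups overlapped and Ncoa4 was not called (0.09 ± 0.05). Hmox1, which breaks down heme (chr8:75093621-75100589), was at 105, 111 and 98.4 CPM in the controls and at 111, 108 and 108 CPM in the knockouts. It overlapped too and was not called (0.05 ± 0.04). Hmox1 was called without Ad-GFP replicate 2 (0.10), and Ncoa4 without Ad-GFP replicate 3 (0.12).

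**Figure D2:**
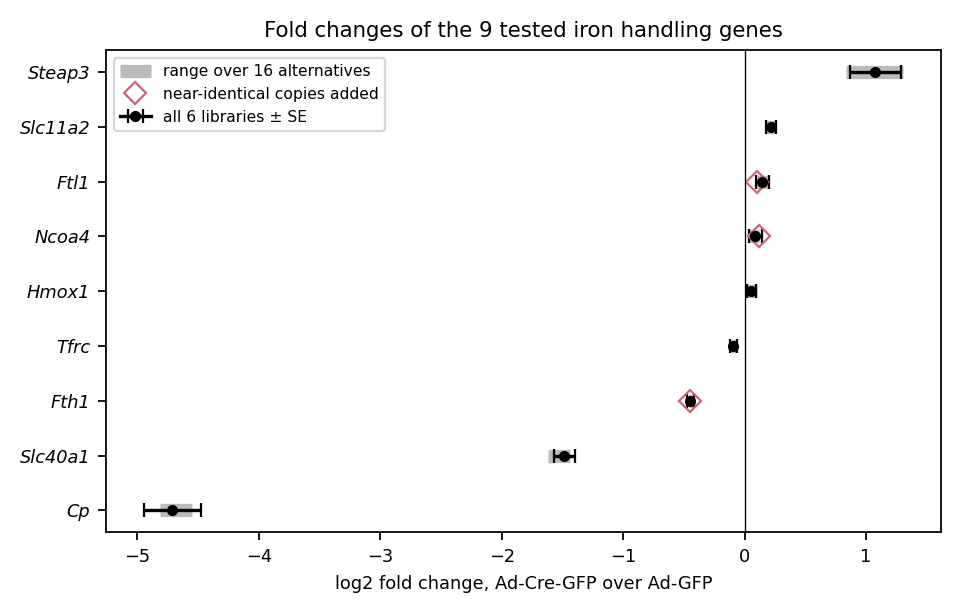
Log2 fold change (x axis) of the 9 tested genes (y axis), Ad-Cre-GFP over Ad-GFP, with its SE in black, the range over 16 other settings in grey and, as open red diamonds, the value after adding the counts of near-identical copies. Cp (-4.71) and Slc40a1 (-1.49) lie far to the left, Steap3 (1.08) to the right, and the other 6 between -0.45 and 0.22.

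The values of Ftl1 and Ncoa4 rest on a minority of the reads that carry their sequence. In the GENCODE transcripts, alignments of at least 200 bases at 90% identity were found to 6 other annotated genes for Ftl1, 5 of them in the count table, and to 1 each for Fth1 and Ncoa4. Of all counts on Ftl1 and these copies, 84.5% were on the copies, mostly on Ftl1-ps1 (chr13:74399694-74407346), which had 109203 counts over the 6 libraries against 28568 for Ftl1 itself. For Ncoa4, 73.7% were on Gm6768, a processed pseudogene (chr12:119260978-119262855). For Fth1, 2.30% were on Gm6977. The remaining 7 genes had no such copy.

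The largest copies of Ftl1 and Ncoa4 differ from them at few bases. Ftl1 and Ftl1-ps1 differed at 4 of 910 aligned bases, and Ncoa4 and Gm6768 at 2 of 1878. The sequences show the first difference of Ftl1 and both of Ncoa4, 25 bases each with the differing base in capitals.
Ftl1: ctcgctgccttcAgctcctaggacc
Ftl1-ps1: ctcgctgccttcGgctcctaggacc
Ncoa4, first: gagaaggaagccAtgtataaatggc
Gm6768, first: gagaaggaagccGtgtataaatggc
Ncoa4, second: agagtggcttatGgggcctacgtgc
Gm6768, second: agagtggcttatAgggcctacgtgc
Ftl1 took 14.6% to 16.3% of the counts of its family in every library, and Ncoa4 25.4% to 27.6%, so the division between gene and copies was nearly the same in both groups. Which of them the reads came from cannot be told from these counts.

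With the copies added, the ferritin light chain was at 1133, 1232 and 1089 CPM in the controls and at 1236, 1283 and 1197 CPM in the knockouts. The groups overlapped, and the log2 fold change was 0.11 ± 0.04. Ncoa4 with Gm6768 was at 133, 128 and 137 CPM in the controls and at 143, 145 and 145 CPM in the knockouts. These did not overlap, and the sum was called (0.12 ± 0.03) where Ncoa4 alone was not. The heavy chain with its copy stayed at -0.45 ± 0.03.

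The balance between the ferritin chains was read within each library, where depth cancels. With the copies included, the ratio of heavy to light chain counts was 1.63, 1.56 and 1.69 in the controls and 1.11, 1.08 and 1.14 in the knockouts. Counted without copies it was 10.9, 10.03 and 10.4 against 7.14, 6.51 and 7.07. The ratio was lower in all knockout libraries either way, although its size depended on whether copies were counted. The ratio of Tfrc to Fth1 counts was 0.288, 0.271 and 0.275 in the controls and 0.347, 0.354 and 0.366 in the knockouts, higher in every knockout library although Tfrc itself was slightly lower.

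**Figure D3:**
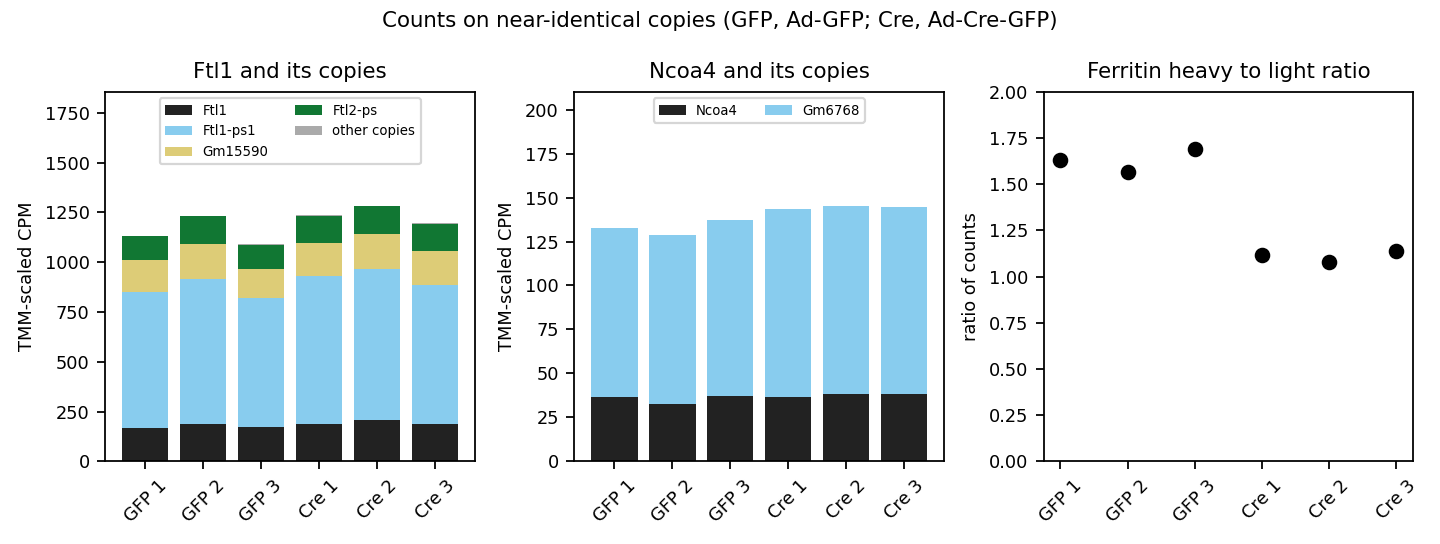
Left and middle, TMM-scaled CPM (y axis) of Ftl1 and Ncoa4 (black) stacked with their near-identical copies (colours) in each of the 6 libraries; right, the ratio of ferritin heavy to light chain counts with copies included. Most of each bar is copies, the bars are of similar height in both groups, and the ratio is 1.56 to 1.69 in controls against 1.08 to 1.14 in knockouts.

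The genes in which this search found a hairpin did not share 1 direction of change. Of those with a hairpin in the 5′ UTR, Slc40a1 (-1.49) and Fth1 (-0.45) were lower and Ftl1 (0.15) higher on the log2 scale. Tfrc, with its hairpins in the 3′ UTR, was at -0.09. Binding to 5′ UTR hairpins acts on translation, which mRNA counts do not measure.

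Levels of different genes were compared as CPM per kilobase of exon. In the controls the order was Fth1 (527 ± 14.4), Ftl1 (131 ± 8.60), Tfrc (82.2 ± 1.86), Hmox1 (59.7 ± 3.47), Cp (8.06 ± 1.55), Slc11a2 (6.77 ± 0.354), Ncoa4 (3.79 ± 0.260), Slc40a1 (1.52 ± 0.0818), Steap3 (0.209 ± 0.0778) and Heph (0). Cp and Slc11a2 overlapped, Cp spanning 6.98 to 9.84 and Slc11a2 6.37 to 7.04, and the other neighbours did not. In the knockouts Cp moved from rank 5 to rank 9, at 0.305 ± 0.0168, below Slc40a1 (0.541 ± 0.0299) and Steap3 (0.455 ± 0.0246). With the longest transcript as the length, Cp was at rank 8 in the knockouts, above Steap3 (0.639 against 0.504). Levels of Ftl1 and Ncoa4 in this order leave out the reads on their copies.

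The genes with profiles most like that of Cp were sought among 9822 named genes with a mean of at least 5 CPM, by the distance between log2 CPM centred on each gene's mean over the 6 libraries. The nearest were Lbp (distance 0.274), which encodes the lipopolysaccharide-binding protein, Spp1 (0.399), which encodes osteopontin, Adgrg1 (0.541), an adhesion receptor, Ptgs1 (0.626), a cyclooxygenase, and Mmp3 (0.627), a matrix protease. Their log2 fold changes were -4.56, -4.39, -4.60, -4.36 and -4.51. Lbp was at 33.7 ± 5.90 CPM in controls and 1.41 ± 0.132 CPM in knockouts. None of them is an iron gene of the lists below, but listed genes under the 5 CPM limit could not be picked. Trf (log2 fold change -4.88) and Atp7b (-3.60) were among those left out. The likeness was chosen on these same libraries.

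Promoters were available in the RefSeq table (GRCm38.p6) for 6 of the 10 genes, Cp, Tfrc, Fth1, Ftl1, Steap3 and Ncoa4, in 14 windows of the 250 bases before a start site. Both strands were searched for TGACNNNGC, the core of the antioxidant response element, for ACGTG, the core of the hypoxia response element, and for GGAATG, a motif of the TEAD factors that bind YAP. The shares of all 32851 windows with a match were 10.2%, 16.6% and 12.6%. ACGTG was found in 1 window of Tfrc and 2 of Ncoa4, and TGACNNNGC in 1 of Ncoa4. The TEAD letters were found in 1 of the 2 windows of Cp, on the reverse strand, as shown in capitals. That window belongs to the second start site, and the match spans the first base of the annotated gene, with all but 1 of its bases inside the gene.
Cp, chr3:19957041-19957070, plus strand: acaaacagatgaCATTCCtttgtagttaga
These are matches of letters, and no binding was measured.

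A wider set of 123 iron, heme and copper genes was read in the same fit. Of the 107 that passed the filter, 82 (76.6%) were called, beside 69.8% of all genes, 30 higher and 52 lower. Their median log2 fold change was -0.09, against -0.01 for all tested genes. Rises and falls were found in 9 of the 10 lists, and the iron sensing list had falls only. The counts per list below stand beside 34.0% of all tested genes called higher and 35.8% called lower. No list was tested as a set.

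**Figure D4:**
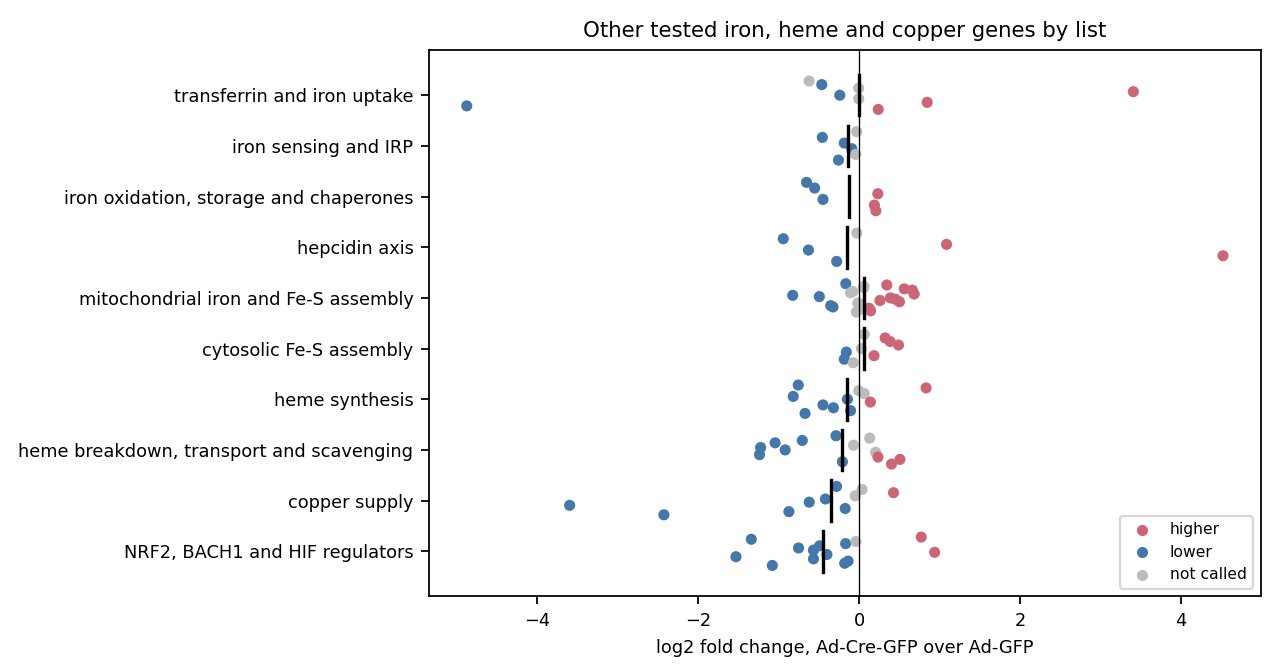
Log2 fold change (x axis), Ad-Cre-GFP over Ad-GFP, of the 107 tested genes in the 10 lists (y axis); points are genes, red called higher, blue called lower and grey not called, and black bars are list medians. The lowest medians are those of the NRF2, BACH1 and HIF regulators (-0.45) and of copper supply (-0.35), and single genes such as Slc39a8 and Erfe on the right and Trf on the left lie far from their lists.

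Transferrin and iron uptake genes had 3 rises, 3 falls and 3 without a call among 9 tested. Slc39a8, which encodes the metal importer ZIP8, rose from 6.47 ± 0.272 to 68.7 ± 2.07 CPM (log2 fold change 3.41 ± 0.06, edgeR adjusted p = 9.58e-22). Its relative Slc39a14 (ZIP14) fell slightly (-0.24 ± 0.04, adjusted p = 2.09e-05). Trf, which encodes transferrin itself, had 79, 83 and 72 counts in the controls and 3, 3 and 4 in the knockouts. That is 31.3-fold lower (95% exact binomial interval 16.7 to 66.1, counting error only), and Trf passed the filter on low counts through the controls alone. The reductase genes Steap1 and Steap2 rose, Steap1 from 32.0 ± 1.63 to 57.7 ± 2.11 CPM (0.84 ± 0.05, adjusted p = 5.80e-13) and Steap2 by 0.24 ± 0.03 (adjusted p = 5.08e-07). Steap2, at 178 CPM in controls and 210 CPM in knockouts, had far more reads than Steap3. The duodenal reductase gene Cybrd1 and the second transferrin receptor gene Tfr2 had 0 counts in all 6 libraries.

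Genes of iron sensing had 4 falls and 2 without a call among 6. Of the 2 iron regulatory proteins, Ireb2 fell (-0.26 ± 0.03, adjusted p = 3.46e-07) and Aco1 was not called (-0.03 ± 0.04, adjusted p = 0.441). Fbxl5, the iron-dependent ligase subunit that marks iron regulatory protein 2 for breakdown, fell by a small amount (-0.19 ± 0.05, adjusted p = 0.00430). Herc2, a ligase that acts on NCOA4, fell more (-0.46 ± 0.04, adjusted p = 1.56e-10).

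Storage and chaperone genes had 3 rises and 3 falls among 6. Pcbp2, an RNA-binding protein that also delivers iron to ferritin, rose (0.23 ± 0.03, adjusted p = 1.72e-06), while App (-0.55 ± 0.03) and Vcp (-0.45 ± 0.03) fell. Ftmt, mitochondrial ferritin, had 0 counts. The hepcidin axis had 2 rises and 3 falls among 6, and hepcidin itself was all but absent, Hamp and Hamp2 both being too low to test. Erfe, which encodes the hormone erythroferrone, had 3 counts in all controls and 99 in all knockouts, 24.7-fold higher (95% exact binomial interval 8.21 to 122). Furin fell from 175 ± 5.0 to 90.8 ± 2.50 CPM (-0.94 ± 0.03, adjusted p = 2.22e-16), and Acvr1, a BMP receptor gene, fell as well (-0.63 ± 0.05).

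Mitochondrial iron and iron-sulfur cluster genes had 10 rises, 5 falls and 8 without a call among 23. The mitochondrial chaperone gene Hspa9 rose from 465 ± 19.1 to 686 ± 3.77 CPM (0.56 ± 0.03, adjusted p = 7.18e-13), Cisd1 by 0.68 ± 0.04 and Glrx5 by 0.66 ± 0.05. The importers of iron into mitochondria changed little: Slc25a37 was not called (-0.02 ± 0.04, adjusted p = 0.725). Slc25a28 was called lower (-0.17 ± 0.06, adjusted p = 0.0138). DESeq2 did not call it (adjusted p = 0.0607), and neither did edgeR without Ad-GFP replicates 1 and 2 (adjusted p = 0.0513 and 0.108) or Ad-Cre-GFP replicates 2 and 3 (adjusted p = 0.0819 and 0.0517), left out in turn. Cytosolic iron-sulfur assembly had 4 rises and 2 falls among 9, with Narfl at 0.49 ± 0.06, Ciapin1 at 0.38 ± 0.04 and Ciao2a at 0.18 ± 0.03.

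Heme synthesis genes had 2 rises, 7 falls and 2 without a call among 11. Cpox rose from 54.0 ± 5.85 to 96.6 ± 1.02 CPM (0.83 ± 0.06, adjusted p = 1.92e-08), while Ppox, the next enzyme of the pathway, fell (-0.67 ± 0.07, adjusted p = 1.74e-08). Tspo, a mitochondrial membrane protein, fell from 169 ± 10.2 to 100.2 ± 1.82 CPM (-0.76 ± 0.04). Alas1, the first enzyme, was not called (-0.01 ± 0.05, adjusted p = 0.931). Genes of heme breakdown, transport and scavenging had 3 rises, 7 falls and 3 without a call among 13. Por, the reductase that supplies electrons to heme oxygenase, fell from 122 ± 3.98 to 59.3 ± 0.931 CPM (-1.05 ± 0.04, adjusted p = 9.57e-17). Lrp1, a receptor for heme bound to hemopexin, (-1.23 ± 0.06) and the transporter gene Abcg2 (-0.71 ± 0.04) also fell. Of the biliverdin reductases, Blvrb fell (-0.92 ± 0.13, adjusted p = 1.76e-06) and Blvra was not called (-0.07 ± 0.06, adjusted p = 0.293). Slc48a1 (-0.29 ± 0.03) and Hmox2 (-0.21 ± 0.05) fell and the heme exporter gene Flvcr1 rose (0.23 ± 0.06, adjusted p = 0.00145).

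Copper, which ceruloplasmin needs, has its own supply genes, of which 1 rose, 7 fell and 2 were not called among 10. The metallothionein gene Mt2 fell from 193 ± 6.93 to 35.9 ± 0.693 CPM (-2.43 ± 0.04, adjusted p = 1.23e-22) and Mt1 from 264 ± 10.5 to 144 ± 7.98 CPM (-0.87 ± 0.04). Slc31a1, the copper importer, fell too (-0.42 ± 0.04, adjusted p = 1.36e-09). Both copper-pumping ATPase genes fell, Atp7a by less (-0.62 ± 0.06, adjusted p = 2.19e-09) than Atp7b (-3.60 ± 0.38). Atp7b, whose product loads copper into ceruloplasmin in the liver, was low throughout, at 1.17 CPM in controls and 0.0917 CPM in knockouts. Its counts were 26, 31 and 21 in the controls and 2, 4 and 2 in the knockouts, so it passed the filter through the controls alone.

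Among regulators known to act on these genes, 2 rose, 11 fell and 1 was not called of 14. Hif1a fell from 576 ± 13.8 to 227 ± 2.76 CPM (-1.34 ± 0.03, adjusted p = 8.14e-20). Nfe2l2, which encodes NRF2, an activator of Hmox1 and the ferritin genes, fell from 202 ± 3.46 to 95.5 ± 1.74 CPM (-1.08 ± 0.03, adjusted p = 6.65e-18). Its partner in degradation Keap1 (-0.57 ± 0.04) and its rival Bach1 (-0.49 ± 0.05) fell as well, and the small Maf gene Maff rose (0.94 ± 0.05). Epas1 was near its floor, with 45 counts in all controls and 20 in all knockouts.

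Several of these genes share long stretches with another annotated gene and are uncertain for that reason: Hmox2, Vcp, Narfl and Erfe had 78.2%, 73.8%, 32.4% and 98.4% of the joint counts on the other gene.

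Macrophages and red cell precursors are rich in several of these genes, so their markers were read beside them. Of 10 macrophage and other immune markers 2 were tested, of which Cd14 fell and Cd68 was not called. Their summed level was 11.3 to 13.5 CPM in controls and 6.86 to 7.59 CPM in knockouts, and Adgre1 and Tyrobp were at 0 in all libraries. No erythroid marker of 8 could be tested. Their sum was 0.313 to 0.477 CPM in controls and 0.292 to 0.445 CPM in knockouts, with 4 of the 8 at 0 everywhere. Stromal fibroblast markers summed to 376 to 395 CPM in controls and 274 to 295 CPM in knockouts, all 4 tested members being lower and Lum at 0. That sum is mostly Col1a1 (89.7% of control) and hides the larger fall of Dcn, from 93.0 to 24.7 CPM (26.6% of control). Pdgfra (25.4%) and Dpt (6.34%) also fell further, from only 0.813 and 0.439 CPM in controls. Endothelial markers summed to 0.106 to 0.470 CPM in controls and 2.15 to 2.64 CPM in knockouts, with Tie1 at 0. Most of the knockout sum was Kdr, the only one tested, which was higher (mean 0.0565 CPM in controls and 2.00 CPM in knockouts). Below the filter, Pecam1 was at 0.200 and 0.116 CPM, Cdh5 at 0 and 0.0345 CPM and Tek at 0.0413 and 0.196 CPM. The part of immune, stromal and endothelial cells in the differences of Cp, Slc40a1 and Trf was not tested.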

How the data were processed

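RNA of 6 libraries was measured by poly(A) RNA sequencing. The deposited table holds raw counts per gene, whole numbers whose column names are those of aligned read files, per the file headers. For the counting tool, strand setting and annotation: not given in the sources used here. Build GRCm38, kallisto 0.46.2 and sleuth 0.30.1 are named without a role, per the submitters' processing notes. Symbols came from GENCODE M21 by ID without version (48058 of 48440 matched), and 4 list names through RefSeq synonyms.

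After filterByExpr and TMM scaling, counts entered edgeR 4.0.16 in R 4.3.3 (quasi-likelihood test, robust, group only), with Benjamini-Hochberg adjustment over 14811 genes and calls under 0.05. Unless another tool is named, adjusted p-values are from this test. SE is the log2 fold change over the square root of F. Replicate pairs had a chi-square per gene of 2.04 to 4.27 (1 is sampling noise), the highest for Ad-GFP replicates 2 and 3. The pairs thus differed by more than sampling noise. This is no test of library quality, and all libraries were kept.

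The members and lists were chosen with earlier results of these data known. Adjusted p-values printed for list genes therefore describe these libraries and are no independent support. This holds most for genes picked by the smallest adjusted p. The text names the 10 members, up to 3 called genes with the smallest adjusted p per list, a fixed set of regulators and iron genes, and the 5 genes nearest to Cp. Alas1, Alas2, Atp7a, Atp7b, Bmp6, Bola3, Commd1, Hamp, Hamp2, Hps3, Isca1, Iscu, Mms19 and Ndor1 were named after seeing their values. The alternatives tried were other scalings and filters, DESeq2 1.42.0, limma-voom (limma 3.58.1), a replicate block, thinning, leaving out mitochondrial genes or 1 library each, and adding near-identical copies (for Ncoa4 chosen after seeing the data). Intervals and floors cover counting error only.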

Additional observations from a re-analysis of the deposited data

How the results depend on the processing

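Over all alternatives the number of the 10 genes called was 5 to 8, against 7 in the main fit, where 69.8% of all tested genes were called. The number was 6 with no low-count filter and 8 with copies added, beside 10854 and 10345 genes called in the whole table. Leaving out 1 library gave 5 (without Ad-GFP replicate 1) to 8 (without Ad-GFP replicate 2), and 9932 to 10124 genes called in the whole table. Cp, Slc40a1, Slc11a2, Fth1 and Steap3 were called in all 16 alternatives without copies, and no direction reversed. How many of all tested genes were called in all 16 was not counted. Cp ranged from -4.81 to -4.55, Slc40a1 from -1.62 (thinned) to -1.44 and Steap3 from 0.84 to 1.30. Tfrc and Ftl1 were called in 13 of 16 and Hmox1 and Ncoa4 in 1 of 16. The other iron, heme and copper genes called were 76 (DESeq2) to 83, against 82. The median log2 change of all genes stayed between -0.02 and 0.06. Deviations from the group mean correlated at 0.05, 0.05 and 0.01 between same-numbered libraries and at -0.07 to 0.02 between differently numbered ones. Such small values from 3 libraries per group cannot decide whether the replicate numbers pair the libraries. With the replicate block 7 of the 10 genes, 82 of the other iron genes and 10478 genes in all were called. Depth limits the genes with few counts, Steap3, Trf, Erfe, Epas1 and Atp7b among them, and Heph can only be bounded.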

Other observations

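Among iron genes below the filter on low counts, Steap4, a reductase gene induced in inflammation in other tissues, had 9, 9 and 2 counts in the controls and 1, 0 and 0 in the knockouts, 26.7-fold lower with a 95% exact binomial interval of 4.28 to 1108. Lcn2, which encodes a protein that captures bacterial iron carriers, had 2 counts in all controls and 1 in all knockouts, too few for any comparison. Outside the 10 genes, the hairpin pattern was found in 2 of the other 123 listed genes. These were Alas2, which holds it in the 5′ UTR and had 43 counts over all libraries (97.9% of the joint counts were on another gene that shares a stretch with it), and Bola3, an iron-sulfur cluster assembly gene, which holds it in the 3′ UTR and rose by 0.50 ± 0.06 (edgeR adjusted p = 9.33e-08). Both were named after the search.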
